A study of Mus musculus with 6 samples.

Results

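The 10 genes described here are Fos, Fosb, Jun, Junb, Jund, Egr1, Atf3, Ier2 and Nr4a1, which encode nuclear regulators, and Dusp1, which encodes a phosphatase. They were taken by name, as immediate early genes that cell dissociation is known to raise. All 10 were found among the 53379 gene rows of each library, and all 10 were among the 19339 genes that passed the filter on low counts and were tested. RNA was sequenced from Lgr5-EGFP-high cells, the stem cells at the base of intestinal crypts, which were sorted from the proximal small intestine of adult C57BL/6 mice. There were 6 libraries, 3 labelled Klf5-KO and 3 labelled control. Klf5-KO mice were Klf5fl/fl and also carried Lgr5-EGFP-IRES-CreERT2 and Rosa-tdTomato. Control mice carried Lgr5-EGFP-IRES-CreERT2 and Rosa-tdTomato without the floxed Klf5 allele. Tamoxifen was given to both groups, at 1 mg a day for 5 days, so Cre was induced in controls too; it is made from the Lgr5 locus and therefore acts in Lgr5-expressing cells. Both were also dissociated in the same way, with 5 mM EDTA to free crypts and 45 minutes in TrypLE before sorting. No library of cells that had not been dissociated was analysed here, so a level reached during preparation and a level already present in the tissue cannot be told apart. The time between tamoxifen and collection, the age and sex of the mice, and whether each library came from a separate mouse are not stated in any source used here. P-values therefore measure the spread between these libraries, which may be partly technical.

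Immediate early genes are transcribed within minutes of a stimulus, without the need for new protein. Growth factor, stress and calcium signals reach them through MAP kinases and through factors already bound at their promoters, among them SRF with its ternary complex partners, and CREB. Fos and Jun proteins pair as the AP-1 factor, Egr1 and Nr4a1 are a zinc finger factor and an orphan nuclear receptor, and Dusp1 removes phosphate from MAP kinases and so limits the response. Because enzymatic dissociation and sorting also trigger them, their levels in sorted cells are widely read as a mark of preparation stress.

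The libraries held 66942102, 66431695 and 72240451 counts in the group labelled Klf5-KO, against 72246097, 77666540 and 61563625 in controls. Mitochondrial genes took 3.00 to 3.36% of counts in libraries labelled Klf5-KO and 1.97 to 2.69% in controls. The targeted gene did not follow the label: Klf5 had 879, 918 and 876 CPM (counts scaled to library size, with TMM factors) in libraries labelled Klf5-KO, against 480.1, 511 and 546 CPM in controls. In edgeR its log2 fold change was 0.80 ± 0.10 (SE, adjusted p = 6.3e-04) with control replicate 3 and 0.84 without it. A whole-gene count cannot show whether the floxed exons were lost, so it neither checks nor replaces the label, and every direction given here follows the labels as they stand. Among controls, replicate 3 differed from the other 2, at -49.6 on the second principal component (13.2% of variance), where these lay at 27.7 and 23.6. The 12 Paneth cell markers summed to 10577, 10269 and 12719 CPM in libraries labelled Klf5-KO, against 1829, 2332 and 22082 CPM in controls, the last value being replicate 3. Of these 12 markers 0 were called with all libraries, where 25.8% of all tested genes were called. All 12 were higher without control replicate 3, where 13.8% of all tested genes were higher. The part of these markers in the results was not tested, and the values of the 10 genes are given with and without that library. The labelled cell type had its markers. The 8 stem cell markers summed to 2414 to 3723 CPM in libraries labelled Klf5-KO, against 7105 to 9869 CPM in controls. Most of each sum was Olfm4, at a mean of 2200.4 CPM in libraries labelled Klf5-KO and 6887 CPM in controls. Lgr5 itself had means of 87.6 and 141 CPM. In edgeR 7 of the 8 were lower at an adjusted p under 0.05 (all but Tnfrsf19), where 12.5% of all tested genes were lower.

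All 10 genes were abundant, and Jun family members and Fos led in both groups. Divided by exon length, so that genes can be set side by side, mean levels in libraries labelled Klf5-KO ran from 324 CPM per kilobase for Jund and 324 for Jun, through 263 for Fos, down to 26.7 for Dusp1. In controls they ran from 310.1 for Jund, 284 for Jun and 219 for Fos down to 28.7 for Nr4a1. The length covers all annotated exon intervals of a gene (for Fosb, 6243 bases in 2 intervals). It can exceed that of the transcript made in these cells, so levels per kilobase are approximate. Among 14117 tested protein-coding genes, Jund ranked 127 in libraries labelled Klf5-KO and 121 in controls. Nr4a1 ranked 643 in libraries labelled Klf5-KO and 1321 in controls, and Dusp1 ranked 1422 in libraries labelled Klf5-KO and 807 in controls. Over controls 1 and 2 alone the order of the 10 genes was the same, with Jund at 302, Dusp1 at 33.5 and Nr4a1 at 20.8 CPM per kilobase, and Nr4a1 ranked 1961 and Dusp1 1078. The libraries shift together, so neighbours in the order were also compared within each library. The higher of the pair was above its neighbour in all 3 libraries labelled Klf5-KO for 7 of 9 pairs, and in all 3 controls for 7 of 9. Jund and Jun, and Egr1 and Ier2, changed places between libraries labelled Klf5-KO, and Junb and Egr1, and Fosb and Dusp1, did so between controls. In libraries labelled Klf5-KO the ranges over 3 libraries did not overlap between Fos and Junb, Junb and Egr1, Ier2 and Atf3, and Fosb and Dusp1, and in controls between Atf3 and Fosb only.

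**Figure D1:**
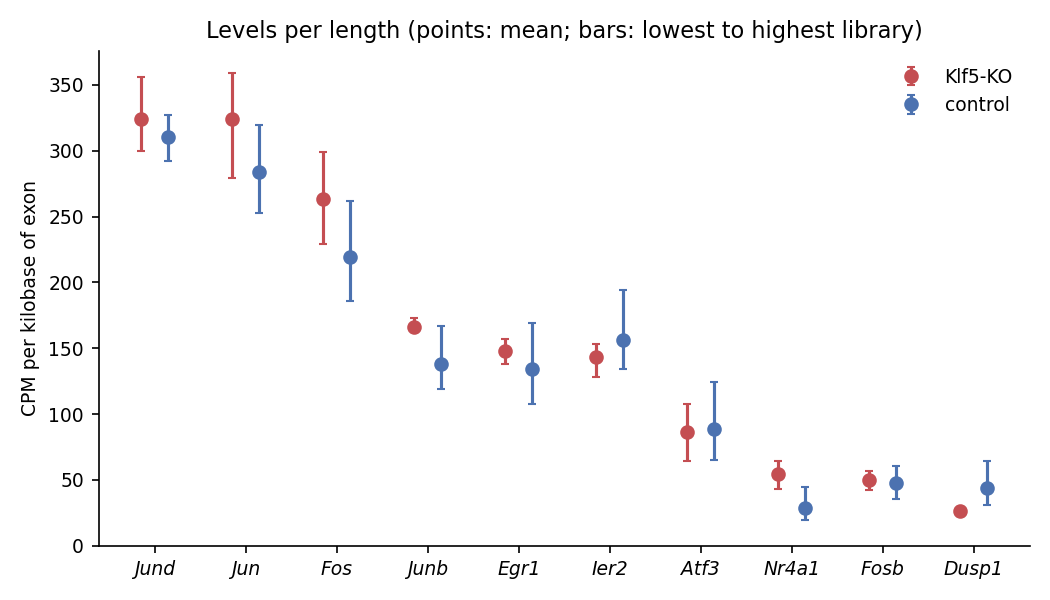
Level of each gene per kilobase of exon (CPM per kilobase, from 0) in libraries labelled Klf5-KO (red) and in controls (blue). Points are means of 3 libraries and bars run from the lowest to the highest library. Jund and Jun lead in both groups, while Dusp1 is lowest in libraries labelled Klf5-KO and Nr4a1 in controls.

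Fos, Fosb, Jun, Junb and Jund, whose proteins form AP-1, were called neither higher nor lower with all 6 libraries. Here a gene is called when its Benjamini-Hochberg adjusted p over all 19339 tested genes is under 0.05 in edgeR's quasi-likelihood test. Fos, the main Fos family transcript in these cells, had 704, 538 and 611 CPM in libraries labelled Klf5-KO, against 489.7, 438 and 616 CPM in controls. Control replicates 1 and 2 lay below all 3 libraries labelled Klf5-KO, and control replicate 3 lay among them. In edgeR the difference of Fos was 0.26 ± 0.15 on the log2 scale (SE, adjusted p = 0.23), with a 95% interval of -0.07 to 0.60. Leaving out control replicate 3 gave 0.41 ± 0.13 (adjusted p = 0.053).

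Fosb, whose protein can replace Fos in AP-1, had 355, 263 and 318 CPM in libraries labelled Klf5-KO, against 289, 220.1 and 378 CPM in controls. Its extremes were both controls, replicate 2 at the bottom and replicate 3 at the top. The edgeR log2 fold change was 0.08 ± 0.18 (adjusted p = 0.79) and, without control replicate 3, 0.29 ± 0.15 (adjusted p = 0.19). Jun, an activating partner of Fos, had 1143, 889 and 1068 CPM in libraries labelled Klf5-KO, against 890.0, 806 and 1019.8 CPM in controls. Klf5-KO replicate 2 lay below 2 of the controls, so the groups overlapped, and the log2 fold change was 0.19 ± 0.14 (adjusted p = 0.33), or 0.28 ± 0.14 (adjusted p = 0.17) without control replicate 3.

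Junb, a Jun protein with weaker activating power on many sites, was called without control replicate 3 but not with it. It had 399, 372 and 373 CPM in libraries labelled Klf5-KO, against 297, 273 and 385 CPM in controls, so only control replicate 3 reached the level of the other group. With all libraries the log2 fold change was 0.26 ± 0.13 (adjusted p = 0.17), and without control replicate 3 it was 0.42 ± 0.09 (adjusted p = 0.011), a call. Jund, the Jun gene that is active in resting cells and the least inducible, varied least within controls. It had 594, 499.7 and 530.2 CPM in libraries labelled Klf5-KO, against 519.5, 486 and 546 CPM in controls, and its log2 fold change was 0.07 (95% interval -0.17 to 0.30, adjusted p = 0.68), or 0.10 (adjusted p = 0.52) without control replicate 3.

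The balance of Jun to Fos transcripts overlapped between the groups. Per kilobase, Jun, Junb and Jund together were 2.35, 2.56 and 2.45 times as abundant as Fos, Fosb, Fosl1 and Fosl2 in libraries labelled Klf5-KO, against 2.62, 2.76 and 2.32 times in controls. Fos alone made up 78.3 to 79.4% of the Fos family sum in libraries labelled Klf5-KO, against 74.5 to 77.4% in controls. Fosl1, a Fos relative raised more slowly after a stimulus, made up 0.597 to 0.776% in libraries labelled Klf5-KO, against 1.29 to 2.23% in controls. Fosl1 had 4.99, 3.19 and 3.38 CPM in libraries labelled Klf5-KO, against 6.41, 5.31 and 13.4 CPM in controls, and fell by a log2 fold change of -1.11 ± 0.33 (adjusted p = 0.037, edgeR). Without control replicate 3 its log2 fold change was -0.61 (adjusted p = 0.072), and the call was also lost without Klf5-KO replicate 2 or 3 (adjusted p 0.12 and 0.11).

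Egr1, Atf3 and Ier2 were not called with or without control replicate 3. Egr1, a zinc finger factor induced through SRF, had 704, 618 and 666 CPM in libraries labelled Klf5-KO, against 563, 484 and 757 CPM in controls. Control replicate 3 was the highest library of all and the other controls were the lowest, and the log2 fold change was 0.14 ± 0.16 (adjusted p = 0.55), or 0.34 ± 0.12 (adjusted p = 0.063) without that library. Atf3, a factor of the CREB and ATF family raised by many stresses, had 232, 138 and 187 CPM in libraries labelled Klf5-KO, against 168, 141 and 266 CPM in controls. The ranges of both labels overlapped almost wholly, and its log2 fold change was -0.04 (95% interval -0.59 to 0.50, adjusted p = 0.91) with all libraries and 0.27 without control replicate 3. Ier2, a nuclear protein of the early response, had 233, 194 and 227 CPM in libraries labelled Klf5-KO, against 204, 215 and 295 CPM in controls. The log2 fold change of Ier2 was -0.13 ± 0.14 (adjusted p = 0.56) and 0.06 without control replicate 3, a change of sign.

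Nr4a1 was the single gene of the 10 that was called. Its protein, also known as Nur77, is an orphan nuclear receptor that is induced by growth factor and calcium signals, and the gene lies at chr15:101266846-101274792 (mm10, plus strand). It had 159, 106 and 139 CPM in libraries labelled Klf5-KO, against 47.4, 55.4 and 109.9 CPM in controls, or 135 ± 26.8 against 70.9 ± 34.0 CPM (SD, n = 3 each). The groups overlapped by a narrow margin, because control replicate 3 exceeded replicate 2 of the libraries labelled Klf5-KO. Nr4a1 was 1.90-fold higher, with a log2 fold change of 0.93 ± 0.28 (SE, 95% interval 0.29 to 1.56, adjusted p = 0.040, edgeR). Without control replicate 3 the log2 fold change was 1.39 ± 0.16 (adjusted p = 9.0e-04). The call was lost when control replicate 1 was left out (0.70 on the log2 scale, adjusted p = 0.098), likewise control replicate 2 (0.77, adjusted p = 0.14), and the libraries labelled Klf5-KO replicate 1 (0.79, adjusted p = 0.13) and replicate 3 (0.91, adjusted p = 0.096). It was also lost with DESeq2 (adjusted p = 0.10), and in edgeR with robust dispersion (adjusted p = 0.14) or a filter of CPM above 1 in 3 libraries (adjusted p = 0.055). The direction was the same in all 16 alternative fits, and the call was kept in 9 of them.

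Dusp1, the phosphatase that turns the MAP kinase response off, lay on the other side. The gene is at chr17:26505590-26508519 (mm10, minus strand). It had 78.9, 64.0 and 73.3 CPM in libraries labelled Klf5-KO, against 97.9, 82.8 and 173 CPM in controls. It was the only gene of the 10 whose groups did not overlap with all 6 libraries, against 43.2% of all tested genes, 22.2% with the libraries labelled Klf5-KO higher and 21.0% with them lower. Its log2 fold change was -0.71 ± 0.23 (SE, 95% interval -1.23 to -0.18) and missed the threshold in edgeR (adjusted p = 0.052). Leaving out control replicate 3 made the difference smaller, at -0.33 ± 0.11 (adjusted p = 0.055). It passed without control replicate 1 (-0.83, adjusted p = 0.048) and without control replicate 2 (-0.91, adjusted p = 0.022).

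**Figure D2:**
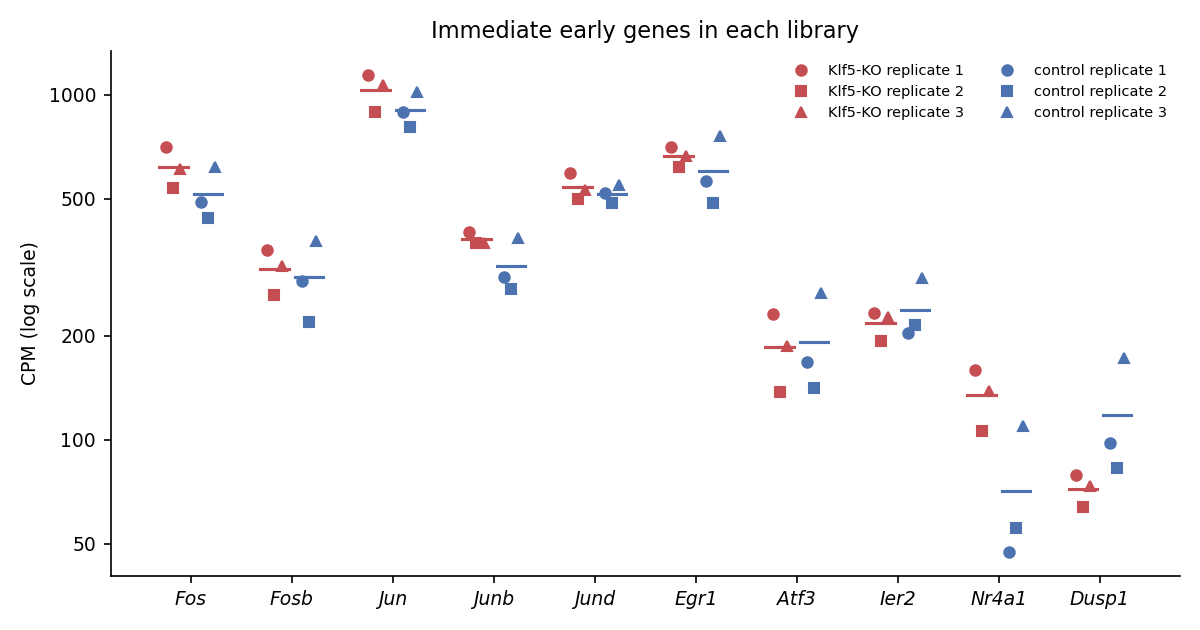
CPM of each of the 10 genes (TMM-scaled, log axis) in the 3 libraries labelled Klf5-KO (red, left of each pair) and the 3 controls (blue). Each point is a library, with its shape giving the replicate, and lines are group means. Control replicate 3 (blue triangle) is the highest control for each gene, and Dusp1 is the gene with no overlap.

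Counted together, 1 of the 10 genes was called higher and 0 lower, where 25.8% of all tested genes were called (13.3% higher and 12.5% lower). At an unadjusted p under 0.05, 1 of the 10 was higher (Nr4a1) and 1 lower (Dusp1), and DESeq2 called 0 in either direction. When control replicate 3 was left out, Junb and Nr4a1 were called higher and 0 lower, where 27.2% of tested genes were called. With that library left out, 4 of the 10 lay above all controls (Egr1, Fos, Junb and Nr4a1) and 1 below (Dusp1), where 28.2% of all tested genes lay above, 28.7% below and 57.0% in either direction. The median log2 fold change of the 10 genes was 0.11, against -0.01 over all tested genes. The median size of the difference was 0.17 for the 10 genes, against 0.30 over all tested genes. In the fit that left out control replicate 3, the median log2 fold change was 0.29 for the 10 genes and -0.00 over all tested genes. Control replicate 3 was the highest control for all 10 genes, so leaving it out raises each of their fold changes.

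**Figure D3:**
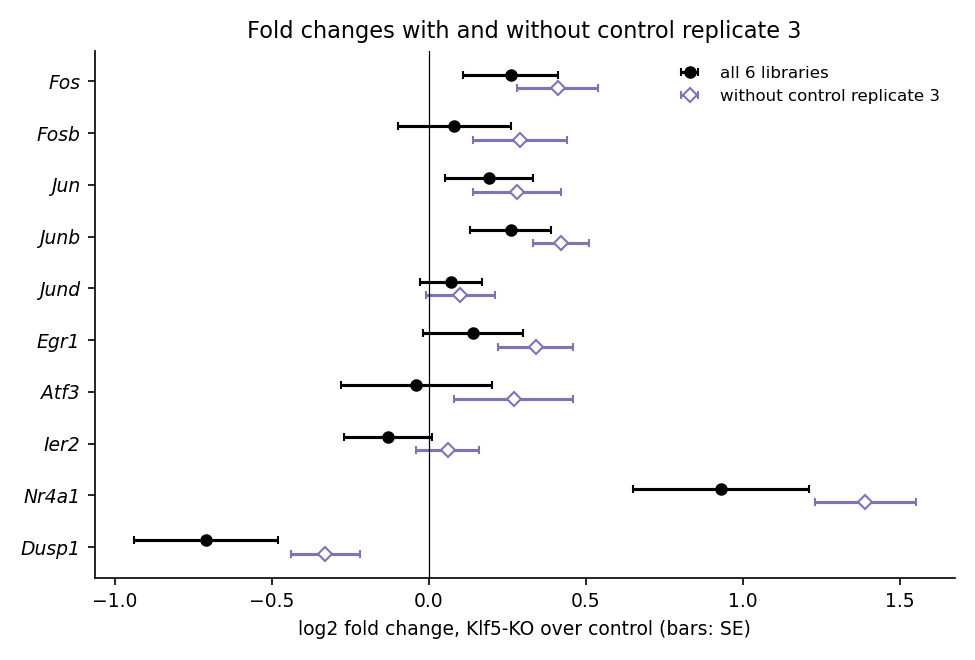
Log2 fold change of the libraries labelled Klf5-KO over controls for each gene, with all 6 libraries and without control replicate 3. Points are edgeR estimates and bars their standard errors. Every one of the 10 points lies further to the right without control replicate 3, where Nr4a1 moves to 1.39 and Dusp1 to -0.33. This follows from that library being the highest control for each gene.

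The genes varied together from library to library within each label. Klf5-KO replicate 1 was the highest library of its label for all 10 genes and Klf5-KO replicate 2 the lowest for all 10. Over all tested genes, replicate 1 was the highest of its label for 33.6% and replicate 2 the lowest for 36.9%. Control replicate 3 was the highest control for all 10 genes, against 38.3% of tested genes, and control replicate 2 the lowest for 8 of them, against 31.7%. The full pattern, control replicate 3 highest among controls with the order 1, 3, 2 among libraries labelled Klf5-KO, was met by 10 of the 10 genes, by 13 of 30 other immediate early genes (43.3%) and by 7.60% of tested genes. This pattern was read off the 10 genes themselves, so their own count is a description. On a log2 scale centred on each gene's own mean, the mean of the 10 genes was 0.23, -0.13 and 0.09 in libraries labelled Klf5-KO, against -0.19, -0.32 and 0.31 in controls. Summed, the 10 genes took 0.471, 0.356 and 0.420% of all counts in libraries labelled Klf5-KO, against 0.359, 0.318 and 0.458% in controls.

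**Figure D4:**
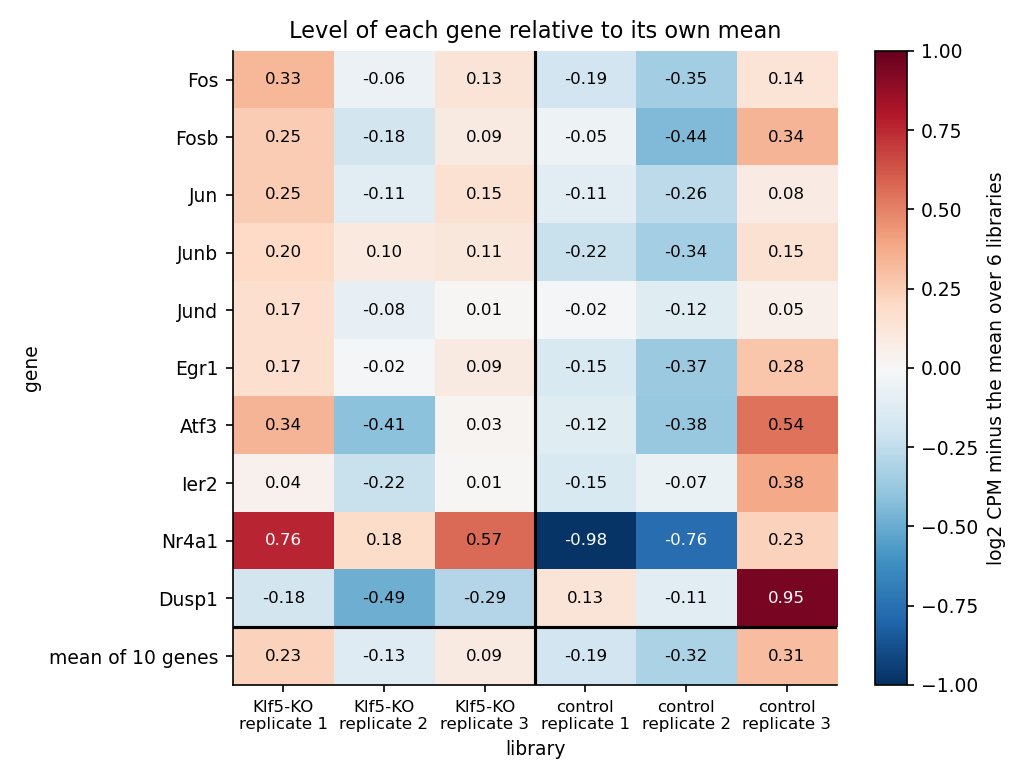
Log2 CPM of each gene minus its mean over the 6 libraries, with red above and blue below that mean and the value printed in each cell; the bottom row is the mean of the 10 genes. Control replicate 3 is above the mean for every gene, control replicates 1 and 2 are below it for all but Dusp1 in replicate 1, and Nr4a1 and Dusp1 show the widest ranges.

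Within this shared pattern the genes split in how closely they followed each other. By the root mean square difference of centred log2 CPM over the 6 libraries, Fos and Jun were nearest to each other at 0.07, and Junb and Egr1 at 0.08. Nr4a1 and Dusp1 were the least alike of any pair, at 0.84. Dusp1 lay nearest to Ier2 at 0.32, and Nr4a1 nearest to Fos at 0.45. Over the 5 libraries left without control replicate 3, the distances of these 4 pairs were 0.07, 0.06, 0.85 and 0.21, and Nr4a1 lay at 0.49 from Fos. Outside the gene lists, among genes averaging 5 CPM or more, those whose pattern was nearest to the mean of the 10 were Zbtb10 (0.040), Mxd1 (0.051), Nfkbil1 (0.075), Polg2 (0.078) and Rab27a (0.080), out of 9980 candidates. Without control replicate 3 Zbtb10 and Mxd1 were in places 4 and 14 of the candidates, and the other 3 in places 125 to 168. Mxd1 had 47.2, 40.4 and 45.1 CPM in libraries labelled Klf5-KO, against 37.2, 35.3 and 55.3 CPM in controls. These values describe 6 libraries that share their preparation, and carry no test.

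The promoters of Nr4a1, which was called, and of Dusp1, the gene least like it, are printed beside those of the closest pair. RefSeq windows on GRCm38.p6 were held for 8 of the 10 genes (all but Egr1 and Ier2), and 7 of these began within 30 bases of a GENCODE start. The 250 bases before the start are given 5′ to 3′ on the gene's strand, and capitals mark the letters TGACG, the core that CREB is known to bind, or its reverse complement CGTCA. They come from chr15:101266596-101266845 (plus strand) for Nr4a1, chr17:26508473-26508722 (minus) for Dusp1, chr12:85473640-85473889 (plus) for Fos and chr4:95052223-95052472 (minus) for Jun.
Nr4a1: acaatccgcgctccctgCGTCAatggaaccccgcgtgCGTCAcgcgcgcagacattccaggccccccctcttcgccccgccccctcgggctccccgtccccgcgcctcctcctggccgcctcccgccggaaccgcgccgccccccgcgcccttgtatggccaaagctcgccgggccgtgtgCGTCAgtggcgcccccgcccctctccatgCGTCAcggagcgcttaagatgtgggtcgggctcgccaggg
Dusp1: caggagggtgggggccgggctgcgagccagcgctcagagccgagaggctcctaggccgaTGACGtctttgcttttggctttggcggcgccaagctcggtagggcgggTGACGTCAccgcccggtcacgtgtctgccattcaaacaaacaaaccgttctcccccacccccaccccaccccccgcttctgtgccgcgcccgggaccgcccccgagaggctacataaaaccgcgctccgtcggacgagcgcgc
Fos: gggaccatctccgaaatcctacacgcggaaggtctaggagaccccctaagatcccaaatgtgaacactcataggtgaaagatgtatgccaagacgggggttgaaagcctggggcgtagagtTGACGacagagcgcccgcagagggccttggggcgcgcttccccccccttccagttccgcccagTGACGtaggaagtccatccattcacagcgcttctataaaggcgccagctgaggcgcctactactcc
Jun: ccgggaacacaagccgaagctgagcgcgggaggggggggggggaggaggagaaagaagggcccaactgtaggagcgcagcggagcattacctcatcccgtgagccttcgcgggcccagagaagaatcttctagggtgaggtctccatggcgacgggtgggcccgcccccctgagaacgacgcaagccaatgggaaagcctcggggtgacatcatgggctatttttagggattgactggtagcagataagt
In the window of 250 bases before to 50 after the start, TGACG on either strand was found in 6 of the 7 promoters, and in 20.8% of 32817 RefSeq promoters of the same length. Nr4a1 held 4 such matches, at -233, -213, -69 and -40, and Dusp1 held 3, of which a pair overlaps in the longer CREB site TGACGTCA at -143 to -136. That longer site was in 1 of the 7 promoters and in 1.79% of all. Fos held matches at -129 and -66, and Jun held none. GGGCGG, the GC box, on either strand was in 6 of the 7 and in 35.6% of all, and TATAAA was in 2 of the 7 and in 13.6%. The AP-1 site TGANTCA was in 0 of the 7 and 7.81% of all, and the CArG box, by which SRF is known to bind, in 0 of the 7 and 1.63% of all within this window. The 32817 promoters were not checked against GENCODE starts, as the 7 were. The Jund window, left out by that check, held none of these motifs. These are exact letter matches, so sites with other letters or outside the window are not counted. They say nothing of which factor was bound.

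Among other immediate early genes, 11 were called with all libraries and 18 without control replicate 3. Of 30 listed, all tested, 7 were called higher (Ccn2, Klf6, Nfkbia, Nfkbiz, Errfi1, Trib1 and Rhob) and 4 lower (Fosl1, Myc, Gadd45b and Klf10), where 13.3% of all tested genes were higher and 12.5% lower, and the median log2 fold change was 0.26 against -0.01 over all tested genes. Klf6, a zinc finger factor related to Klf5, had 229, 171 and 227 CPM in libraries labelled Klf5-KO, against 112, 80.7 and 129.8 CPM in controls. All libraries labelled Klf5-KO lay above all controls, and the log2 fold change was 0.96 ± 0.17 (adjusted p = 0.0041, edgeR). Myc, a Wnt target that drives cell growth, had 141, 182 and 177 CPM in libraries labelled Klf5-KO, against 271, 295 and 255 CPM in controls. Myc fell with no overlap, by a log2 fold change of -0.72 ± 0.11 (adjusted p = 0.0022). Klf6 and Myc were the 2 of these 11 calls that were kept when each library was left out in turn, where 50.5% of all calls were kept. Nfkbiz, a nuclear member of the IkB family, rose by a log2 fold change of 0.55 ± 0.13 (adjusted p = 0.016), a call lost when control replicate 2 or either of Klf5-KO replicates 1 and 3 was left out (adjusted p 0.054 to 0.065). Ccn2, a secreted matrix protein and target of YAP, was low and rose, at 3.39 ± 1.42 CPM in libraries labelled Klf5-KO and 1.36 ± 0.340 CPM in controls (SD, n = 3 each; log2 fold change 1.32, adjusted p = 0.019). That call was lost without Klf5-KO replicate 1 (adjusted p = 0.063) or 3 (adjusted p = 0.076).

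Without control replicate 3, 16 of the 30 were called higher and 2 lower, where 13.8% of all tested genes were higher and 13.4% lower. The 7 genes called higher with all libraries were among the 16, and the other 9 were Csrnp1, Egr2, Egr3, Ier3, Maff, Nr4a3, Per1, Sgk1 and Zfp36. Of the relatives of Nr4a1 and Egr1, 3 were called only in that fit and Nr4a2 in neither. Nr4a3 had 21.3, 18.8 and 21.3 CPM in libraries labelled Klf5-KO, against 12.9, 8.61 and 18.9 CPM in controls, with a log2 fold change of 0.61 (adjusted p = 0.084, edgeR) and, without control replicate 3, 0.93 (adjusted p = 0.0071). Nr4a2 had 54.5, 46.4 and 50.3 CPM in libraries labelled Klf5-KO, against 50.5, 42.8 and 73.7 CPM in controls, with -0.14 (adjusted p = 0.59) and 0.11 (adjusted p = 0.46) in the same fits. Egr2 had 58.8, 57.7 and 64.9 CPM in libraries labelled Klf5-KO, against 41.3, 35.3 and 76.6 CPM in controls, with a log2 fold change of 0.25 (adjusted p = 0.49) and, without control replicate 3, 0.66 (adjusted p = 0.0023). Egr3 had 12.4, 14.0 and 15.5 CPM in libraries labelled Klf5-KO, against 9.78, 8.18 and 25.9 CPM in controls, with -0.06 (adjusted p = 0.92) and, without control replicate 3, 0.64 (adjusted p = 0.015). Control replicate 3 was the highest control for 26 of the 30 (86.7%). Nr4a2, Nr4a3, Egr2 and Egr3 are named here as relatives of Nr4a1 and Egr1, chosen after their values were seen.

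**Figure D5:**
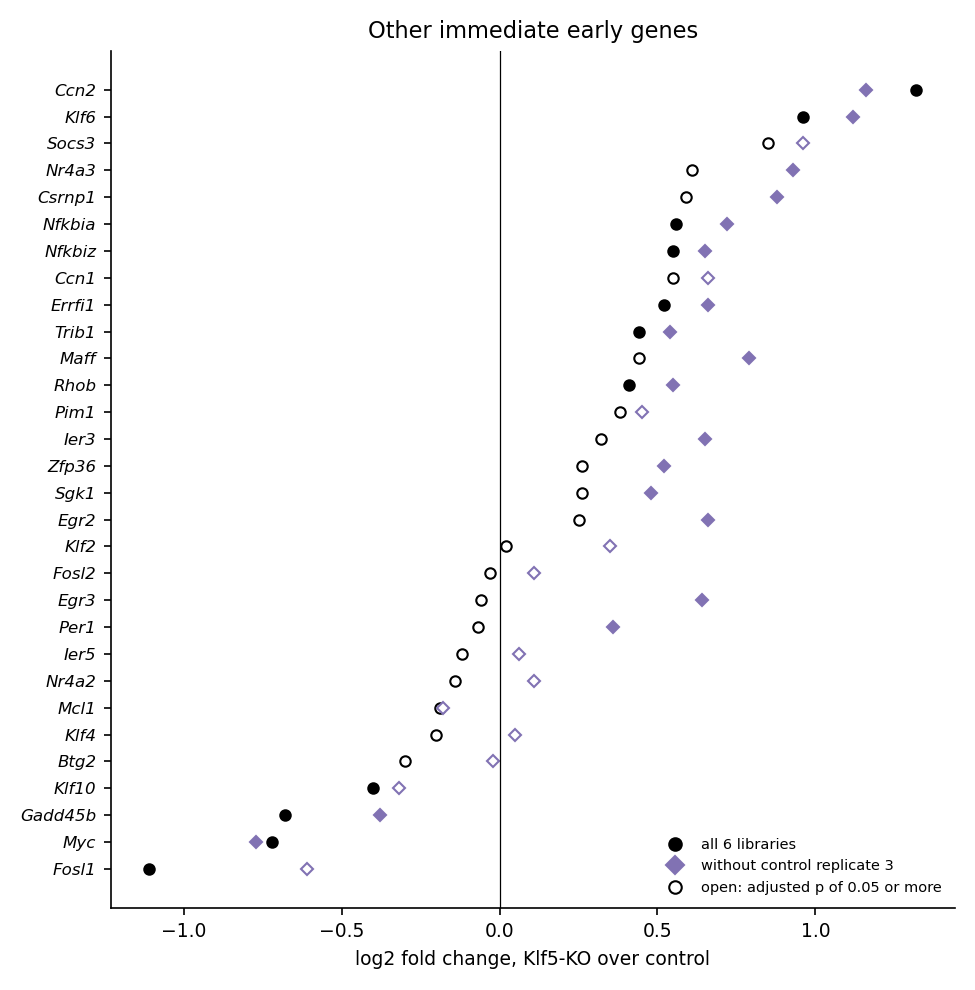
Log2 fold change of the libraries labelled Klf5-KO over controls for 30 other immediate early genes, with all 6 libraries and without control replicate 3. Points are edgeR estimates, filled where the adjusted p is under 0.05. With all libraries 7 genes are called higher and 4 lower, and 16 higher and 2 lower without control replicate 3.

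Signalling genes that lie before and after this response were called at 4 of 24 and 3 of 14 with all libraries, against 25.8% of all tested genes. Without control replicate 3, 4 of the 24 were higher and 4 lower, and 4 of the 14 were higher and 0 lower. In that fit 27.2% of all tested genes were called. Among the 24 upstream factors and kinases, 3 were higher and 1 lower with all libraries, with a median log2 fold change of -0.04. Mapk3, which encodes the kinase ERK1, fell by a log2 fold change of -0.66 ± 0.11 (adjusted p = 0.0023, edgeR), at 77.6, 75.3 and 79.1 CPM in libraries labelled Klf5-KO and 105, 122 and 139.8 CPM in controls. Crem, a CREB relative that includes repressor forms, rose by 0.74 ± 0.14 on the log2 scale (adjusted p = 0.0049), Mapk8, which encodes JNK1, by 0.44 ± 0.09 (adjusted p = 0.0063), and Map2k2, a kinase of ERK, by 0.33 ± 0.08 (adjusted p = 0.016). Of 14 feedback inhibitors of MAP kinase signalling, 3 were higher and 0 lower with all libraries, with a median of 0.11. These were Spry1 and Spry4, which block receptor signalling to Ras, and Dusp6, a phosphatase of ERK. Spry1 had 35.5, 26.9 and 36.6 CPM in libraries labelled Klf5-KO, against 16.8, 16.8 and 21.2 CPM in controls, with no overlap (log2 fold change 0.86 ± 0.14, adjusted p = 0.0028). Dusp6 had 23.1, 18.8 and 23.4 CPM in libraries labelled Klf5-KO, against 12.4, 10.6 and 16.8 CPM in controls (0.72 ± 0.17, adjusted p = 0.014), so this relative of Dusp1 lay on the opposite side to it, and whether the fold changes differ between them was not tested. Calls that were lost when a single library was left out were those of Map2k2 (adjusted p up to 0.065), Dusp6 (up to 0.060) and Spry4 (up to 0.10).

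Of 16 partners and relatives of AP-1 proteins, 14 were tested, 1 was higher and 3 were lower. That is 28.6% called, against 25.8% of all tested genes. Without control replicate 3, 2 were higher and 2 lower. The 3 lower genes were Cebpb, Jdp2 and Fosl1, the last also counted among the other immediate early genes. Cebpb, a bZIP factor of stress and differentiation, had 23.0, 26.5 and 27.2 CPM in libraries labelled Klf5-KO, against 42.4, 40.4 and 43.3 CPM in controls, with a log2 fold change of -0.72 ± 0.09 (adjusted p = 7.7e-04, edgeR). Jdp2, a repressor that pairs with Jun, fell (-1.32 ± 0.30, adjusted p = 0.012), and Maf, a bZIP factor, rose (1.14 ± 0.26, adjusted p = 0.012), and both calls were lost without Klf5-KO replicate 1 (adjusted p 0.053 and 0.052). Heat shock and stress genes, which preparation can also raise, gave 4 higher calls and 1 lower among 18 without control replicate 3. In that fit 27.2% of all tested genes were called. With all libraries 1 of the 18 was called higher and 0 lower (5.56%, against 25.8% of all tested genes). That call was Hmox1, the haem-degrading enzyme, at 1.46 ± 0.196 CPM in libraries labelled Klf5-KO and 0.831 ± 0.0909 CPM in controls (SD, n = 3 each, adjusted p = 0.028 in edgeR), and it was lost without any one of 4 libraries (adjusted p 0.053 to 0.11). The inducible chaperone gene Hspa1a had 44.7, 173 and 219.5 CPM in libraries labelled Klf5-KO, against 99.2, 67.7 and 161 CPM in controls, so Klf5-KO replicate 1, the highest of its label for all 10 immediate early genes, was the lowest for this gene. Hspa1a was chosen after its values were seen, and its near-identical copy Hspa1b makes its count uncertain.

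Cell type markers also differed between the libraries. The calls given are with all libraries unless stated, where 13.3% of all tested genes were higher and 12.5% lower. Enterocyte markers, of which 6 of 12 were higher and 0 lower, summed to 3393, 1917 and 2502 CPM in libraries labelled Klf5-KO, against 1256, 944 and 1285 CPM in controls. Tuft cell markers, 7 of 11 higher, summed to 285, 221 and 160.4 CPM in libraries labelled Klf5-KO, against 130.2, 138 and 109 CPM in controls. Enteroendocrine markers, 10 of 12 lower, summed to 88.2, 97.7 and 91.4 CPM in libraries labelled Klf5-KO, against 154, 177 and 314 CPM in controls, and were highest in control replicate 3 as the Paneth markers were. The enterocyte sums too were highest in replicate 3 among controls and lowest in replicate 2, with the order 1, 3, 2 among libraries labelled Klf5-KO, which is the order of the mean of the 10 genes within each label. Goblet cell markers, 4 of 10 lower, summed to 1577, 1234 and 1308 CPM in libraries labelled Klf5-KO, against 2735, 2459 and 2539 CPM in controls. Fcgbp was the largest part of these sums, at a mean of 523 CPM in libraries labelled Klf5-KO and 1455 CPM in controls. The goblet markers Muc2 and Agr2 were not called. Without control replicate 3, 2 goblet markers were higher (Spink4 and Ccl9) and 4 lower. Immune markers summed to 28.5, 28.9 and 29.9 CPM in libraries labelled Klf5-KO, against 30.9, 23.1 and 42.5 CPM in controls, with 0 called of 8 tested, and no library had stromal markers above 11.0 CPM or endothelial markers above 6.45 CPM. Stromal markers summed to 3.61 to 4.44 CPM in libraries labelled Klf5-KO, against 7.31 to 11.0 CPM in controls, with Col1a2 higher and Pdgfrb and Vim lower among 4 tested. Endothelial markers summed to 1.93 to 2.83 CPM in libraries labelled Klf5-KO, against 4.56 to 6.45 CPM in controls, with Vwf lower among 3 tested. Without control replicate 3, 5 enterocyte markers, 6 tuft markers and 1 immune marker were higher, and 10 enteroendocrine markers were lower. The stromal and endothelial counts did not change. In that fit 13.8% of all tested genes were higher and 13.4% lower. No marker of these lists was at 0 in all libraries. In bulk RNA, fewer cells of a type and less RNA per cell cannot be told apart, and the part of these cell types in the values of the 10 genes was not tested.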

How the data were processed

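RNA was sequenced from 6 libraries of sorted intestinal stem cells. Per the labels' protocols, total RNA was made into stranded libraries after removal of ribosomal RNA. Per the submitters' processing notes, STAR 2.5.2a, mm10 and DESeq2 1.18.1 were used. Per the file headers, the authors counted reads with featureCounts 1.4.3-p1 on the reverse strand, and the deposited values are whole-number counts per gene, not normalized. Antisense overlaps of Jun, Junb and Jund were therefore counted apart, and no member shares exon bases with another gene on its own strand.

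Gene IDs were given symbols from GENCODE vM21, which matched 53274 of 53379. Counts were tested with edgeR 4.0.16 (R 4.3.3): filterByExpr left 19339 genes, libraries were scaled by TMM, and the group was the only term of the quasi-likelihood F test. Benjamini-Hochberg adjustment ran over the whole table, and an adjusted p under 0.05 made a call. The SE is the log2 fold change over the square root of F, and CPM values rest on TMM-scaled depth. The estimated biological variation between libraries was 17%, and every pair of libraries differed by more than sampling noise, so none was counted as a copy. Depth was 61563625 to 77666540 counts, where 3 counts, the limit for a gene with none, are 0.0386 to 0.0487 CPM (counting error only). Genes holding ribosomal RNA-like sequence took 13.51 to 18.33% of counts. The scripts were tested on simulated counts of 19019 genes, of which 200 were changed, and 9 of 145 calls were false. Of the genes changed 1.5-fold 24% were recovered, and of those changed 2-fold 56%. A gene that was not called may therefore still differ by such a fold.

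The members and all gene lists were chosen with earlier results of these data known. The text names the members, Klf5 and up to 4 called genes of each list by adjusted p. Of the lists of other cell types mostly sums are printed. The 5 genes outside the lists nearest to the members' mean pattern are also named. Other called genes of the list of other immediate early genes are named to account for its counts, and genes named outside this rule were chosen after their values were seen. Levels, order and likeness without control replicate 3, and neighbours within each library, were added after seeing the data. Promoter sequences are RefSeq's, on GRCm38.p6, and were not used for Jund, whose window starts 1210 bases from a GENCODE start. Alternatives were RLE, upper-quartile and total-count scaling, no mitochondrial or ribosomal RNA-like genes, no low-count filter, CPM above 1 in 3 libraries, DESeq2 1.42.0, limma-voom (limma 3.58.1), robust dispersion, a replicate block, and leaving out each library in turn.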

Additional observations from a re-analysis of the deposited data

How the results depend on the processing

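For 43 named genes and 16 alternative settings, 591 of 687 log2 fold changes kept their direction and their side of the threshold, 60 lost a call, 15 gained one and 21 changed sign; beyond the smaller number of libraries or genes in some fits, the cause was not tested. RLE, upper-quartile and total-count scaling moved the median of all genes by at most 0.016 on the log2 scale. With CPM above 1 in 3 libraries, DESeq2 or robust dispersion, 0 members were higher (main count 1); with no low-count filter or the replicate block, 1 was lower (main count 0). Leaving out single libraries gave 0 to 2 higher and 0 to 1 lower members, 1605 to 2740 higher and 1467 to 2664 lower genes, and 1 to 16 higher and 1 to 4 lower other immediate early genes. The last list had 13 higher with no filter and 2 lower with robust dispersion. Same-numbered libraries did not deviate together (correlations -0.008, 0.006 and -0.039), so the numbers were not taken as pairs; with the replicate block 2286 genes were higher and 2088 lower, Dusp1 was at -0.64 and Egr3 at 0.12. Limma-voom put Egr3 at 0.17. Leaving out single libraries also changed signs, with ranges of -0.10 to 0.29 for Fosb, -0.0013 to 0.14 for Jund, -0.23 to 0.27 for Atf3, -0.23 to 0.06 for Ier2, -0.31 to 0.11 for Nr4a2, -0.36 to 0.64 for Egr3, -0.03 to 0.36 for Zbtb10, -0.07 to 0.29 for Mxd1, -0.06 to 0.19 for Nfkbil1, -0.06 to 0.24 for Polg2 and -0.02 to 0.28 for Rab27a. Over all settings the log2 fold change ran from 0.70 to 1.39 for Nr4a1 (adjusted p 3.1e-07 to 0.14) and from -0.91 to -0.33 for Dusp1 (3.6e-05 to 0.16).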
